A study of Mus musculus with 180 samples.

Results

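The PIM kinase genes are *Pim1*, *Pim2* and *Pim3*, which make up 3 of the 45070 genes in the table of normalized exonic read counts and were taken by their symbols. All 3 were among the 12714 genes that passed the filter on low values, a mean of at least 10 over all samples. *Pim3* was picked because its level with the inhibitor Momelotinib was higher than with the vehicle, so the values of all 3 genes with Momelotinib are given here as a description, with no test.

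The samples are wild type macrophages that were differentiated in culture from the bone marrow of male C57/BL6 mice aged 6 to 8 wk. They were pre-treated for 1 h with 1 of 58 clinical kinase inhibitors (CKIs) or with DMSO, the vehicle, and then all of them were stimulated for 2 h with 10 ng/ml LPS, the bacterial ligand of TLR4. Each CKI has 3 samples, and DMSO has 6, which the labels divide into 2 sets of 3, giving 180 samples in all. Each CKI was used at its own concentration, set by the affinity for the kinase the study intended to inhibit, so the CKIs are set side by side here and were not tested against each other. No sample was left without LPS, so the levels describe stimulated cells only. The methods name 3 independent biological replicates, which the labels number 1 to 3, without saying which animals or cultures they came from. Each number occurs in both DMSO sets, so the 6 DMSO samples may stand for 3 biological replicates. They are counted here as 6.

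PIM kinases are serine/threonine kinases that promote survival, growth and translation in blood cells, in part by phosphorylating the death-promoting protein BAD and the cell cycle inhibitor p27. They have no known regulatory domain and are active as they are made, so their activity is thought to be set mainly by how much of each is produced and degraded. Transcription of *Pim1* is a known response to cytokines that act through JAK kinases and STAT factors, and the *Pim1* mRNA is short-lived, as is typical of mRNAs with AU-rich elements in the 3′ untranslated region (UTR).

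The sequences upstream of the 3 genes are shown because *Pim1* and *Pim3* were both called higher with the CKIs BGT226 and Omipalisib. Of all genes, 24.1% were called higher with BGT226 and 17.5% with Omipalisib. *Pim2* was called higher with neither and lower with Omipalisib, as were 8.16% of all genes. With the CKI Pimasertib, *Pim2* and *Pim3* were both called lower, as were 5.68% of all genes. Of these calls, only that of *Pim3* with BGT226 held under every alternative setting that gave it a value. Whether the upstream sequences bear on the calls was not tested. The sequences are the 250 bases before each gene's start in RefSeq, on the plus strand of GRCm38.p6, the assembly that mm10 is the browser name for, at chr17:29490535-29490784, chrX:7878056-7878305 and chr15:88861944-88862193. Capitals mark the CCAAT box, a promoter element bound by NF-Y, here on the opposite strand as ATTGG.
Pim1 upstream: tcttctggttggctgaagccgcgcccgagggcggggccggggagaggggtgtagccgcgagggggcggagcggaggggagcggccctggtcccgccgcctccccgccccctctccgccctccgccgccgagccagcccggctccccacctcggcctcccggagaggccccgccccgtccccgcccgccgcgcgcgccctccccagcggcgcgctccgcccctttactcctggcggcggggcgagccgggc
Pim2 upstream: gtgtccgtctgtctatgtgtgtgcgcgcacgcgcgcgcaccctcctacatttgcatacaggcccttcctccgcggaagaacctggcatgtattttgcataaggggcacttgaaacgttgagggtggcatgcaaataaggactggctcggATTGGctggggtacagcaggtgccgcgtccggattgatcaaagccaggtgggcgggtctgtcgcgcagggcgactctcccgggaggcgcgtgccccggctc
Pim3 upstream: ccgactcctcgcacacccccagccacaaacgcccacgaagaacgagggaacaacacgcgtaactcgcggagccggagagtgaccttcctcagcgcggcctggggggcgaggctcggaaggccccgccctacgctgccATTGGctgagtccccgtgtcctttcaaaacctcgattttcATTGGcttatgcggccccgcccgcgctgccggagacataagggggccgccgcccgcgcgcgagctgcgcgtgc
The CCAAT box, searched on both strands, was in 33.8% of 32851 such upstream windows. It was absent from that of *Pim1*, 101 bases before the start of *Pim2*, and 113 and 73 bases before that of *Pim3*. GGGCGG, the GC box bound by SP factors, was in 32.7% of windows and occurred 7 times upstream of *Pim1*, which was 82.4% G and C, against 1 match for *Pim2* (62% G and C) and 3 for *Pim3* (68%). The median window was 52.4% G and C. The NF-kB consensus, found in 7.25% of windows, had 1 match, 136 bases before the start of *Pim3*. It overlapped the GC box that begins 128 bases before the same start. The letters TTCNNNGAA of STAT factors (7.02% of windows), GTAAACA of FOXO factors (3.17%), TGACGTCA of CREB (1.55%), TGANTCA of AP-1 (6.75%), CACGTG of the E-box (6.02%) and TATAAA (12.4%) had no match in the 3 windows on either strand. These matches describe the letters of the windows and not binding, and *Pim1* has another annotated start 2300 bases downstream that was not searched.

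The AU-rich elements are shown because they are a known mark of short-lived mRNAs and differ between the 3 genes. Each line is the 25 bases of the 3′UTR of the GENCODE transcript with the most ATTTA pentamers, which are in capitals, written as DNA.
Pim1-201: tttaatgtATTTATTTATTTATTTA
Pim2-201: aaacctATTTAataaataatgaagt
Pim3-201: ctATTTAttgtttaATTTAtttgct
The *Pim1* stretch, which begins 942 bases after the stop codon, held 4 overlapping pentamers, and the whole 3′UTR of *Pim1* held 5, or 3.66 per kb. *Pim3* also held 5 pentamers in a shorter 3′UTR, 5.19 per kb, and *Pim2* held 2, 2.19 per kb. The median of 19934 genes was 1.35 per kb, and 84.8%, 66% and 93.2% of them had a lower density than *Pim1*, *Pim2* and *Pim3*, respectively.

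*Pim1* was by far the most abundant of the 3 genes in DMSO-treated macrophages. It lies at chr17:29490785-29496111, and its values were 1580, 924 and 287 in the samples numbered 1 to 3 of the first DMSO set and 1762, 673 and 404 in those of the second set. *Pim2*, at chrX:7878306-7883432, had 76, 79 and 96 in the first set and 36, 111 and 90 in the second. *Pim3*, at chr15:88862194-88865726, had 17, 10 and 10 and then 16, 31 and 11, so that it lay close to the filter. All 3 genes are on the plus strand and have 6 exons, and the values are normalized read counts over all exons, with no fixed unit. Divided by the length of the gene model, the level of *Pim1* was 346 ± 225 per kb (SD, n = 6), that of *Pim2* 39.8 ± 12.5 and that of *Pim3* 6.55 ± 3.32. The lowest *Pim1* value, 287, was above the highest *Pim2* value, 111, whose lowest, 36, was in turn above the highest *Pim3* value, 31.

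The replicate number moved with the levels of *Pim1* and *Pim2* in nearly every condition. In the 60 sets of 3 samples, the 58 CKIs and the 2 DMSO sets, the median of *Pim1* was 1727 in samples numbered 1, 1160.5 in those numbered 2 and 753.5 in those numbered 3, and sample 1 exceeded sample 3 in 59 of 60 sets. *Pim2* went the other way, with medians of 47.5, 67.5 and 86 and sample 3 above sample 1 in 59 of 60 sets. For *Pim3* the medians were 18.5, 20 and 14, with sample 1 above sample 3 in 40 sets. The number accounted for 61.6% of the variance of *Pim1* within conditions, 61.1% of that of *Pim2* and 9.86% of that of *Pim3*, against 18.8% for the median gene. The share of mitochondrial transcripts moved with the number too, with medians of 1.93%, 1.34% and 1.09%, and its part in these levels was not tested. What the numbers stand for beyond a replicate is not given in the labels, so each comparison below was also fitted with the number as a block, and blocked values are given where they change a call.

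**Figure D1:**
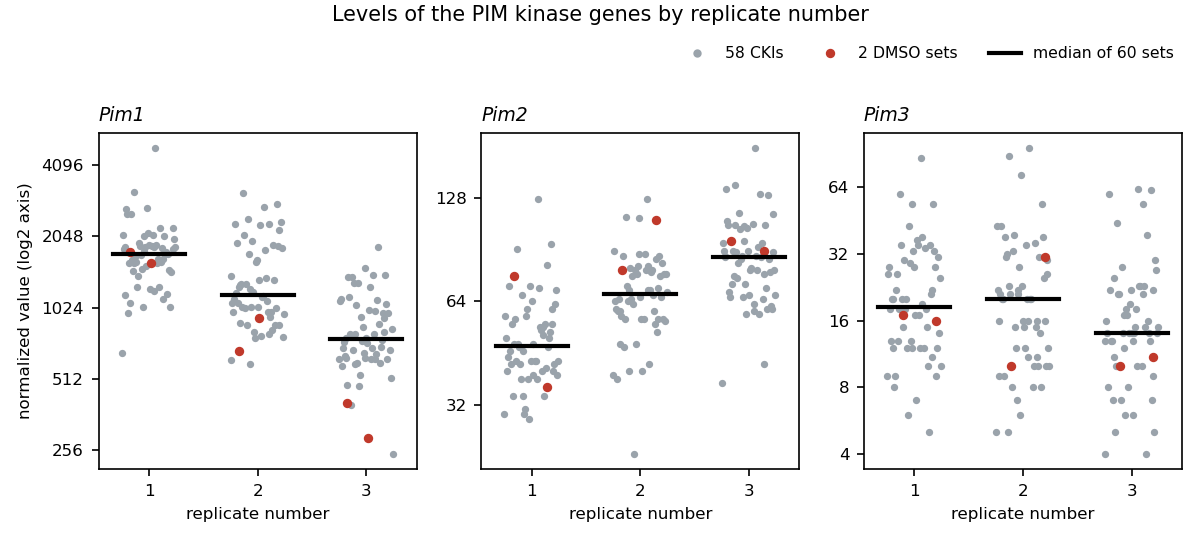
Normalized values of *Pim1*, *Pim2* and *Pim3* on a log2 axis by replicate number, with 1 grey point for each of the 58 CKIs, red points for the 2 DMSO sets and a black bar at the median of the 60 sets. *Pim1* was lowest in samples numbered 3 (median 753.5) and *Pim2* in samples numbered 1 (median 47.5), whereas the medians of *Pim3* lay between 14 and 20.

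The normalized values summed to between 9477340 and 12273349 per sample, and 0 pairs of samples were identical. All 8 macrophage markers passed the filter, whereas T cell, mast cell and erythroid markers summed to at most 6 in any sample. Markers of NK cells summed to at most 8, those of B cells to at most 46 and those of fibroblasts to at most 147 (12 to 104 with DMSO). The markers of neutrophils, which summed to 113 to 420 in the DMSO samples, summed to 489 to 561 with Pimasertib and to at most 745 in any sample. The share of mitochondrial transcripts was 0.759% to 1.94% with DMSO, against 3.24% to 4.29% with Pimasertib and 1.92% to 3.71% with Lapatinib. High shares were not particular to these CKIs. The share was 0.892% to 4.2% with Pacritinib, 1.35% to 4.01% with Tofacitinib and 0.783% to 3.69% with SGI1776. The part of these measures in the results was not tested, apart from the fits with the mitochondrial share given below. All Pimasertib samples lay above the DMSO range of that share, so those fits cannot tell the CKI and the share apart. The 2 DMSO sets differed in 0 genes by limma, with 310 at an unadjusted p under 0.05. In bulk RNA, fewer cells with a transcript and less of it in each cell cannot be told apart.

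With Momelotinib, designated as a JAK inhibitor and used in the study against IKBKE, *Pim3* had values of 54, 54 and 62. All 3 were above the highest DMSO value, and their mean of 56.7 ± 4.62 (SD, n = 3) was 3.58 times the DMSO mean of 15.8 ± 8.04 (SD, n = 6). *Pim2* also lay above all DMSO samples with Momelotinib, at 127, 127 and 179, the highest mean of any condition. *Pim1* values of 1807, 1066 and 1109 overlapped those of DMSO, with a log2 fold change of 0.75. Of all genes tested, 3.71% had their 3 Momelotinib samples above the 6 DMSO samples. Momelotinib was the condition with the highest *Pim2*, but it ranked below BGT226 and Midostaurin for *Pim3* and 26 of 59 for *Pim1*.

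Outside Momelotinib, *Pim3* rose with BGT226, Midostaurin and Omipalisib and fell with BMS911543, Afatinib and Pimasertib. The DMSO samples over which its rise with Momelotinib was chosen are also the reference here. These comparisons are therefore not independent of the choice of *Pim3*, and low DMSO values would favor higher calls. The 6 calls among 57 CKIs, with an adjusted p under 0.05 by limma, compare with 4.24% of all pairs of a gene and a CKI. The median gene was called in 2 CKIs, and 11.2% of genes in as many as *Pim3* or more. BGT226 is designated as a PI3K and mTOR inhibitor and was used against CLK1. With it, *Pim3* values were 87, 96 and 63, and the log2 fold change was 2.39 ± 0.41 (SE; adjusted p = 7.44e-07). Midostaurin, a staurosporine analogue used against TBK1, gave 60, 89 and 44 and a log2 fold change of 2.01 (adjusted p = 0.000281). The samples of both CKIs lay above all DMSO samples, as in 4.53% of all pairs of a gene and a CKI. The calls with BGT226 and Midostaurin were the 2 of the 11 made for the 3 genes that held under every alternative setting that gave them a value.

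Omipalisib, another PI3K and mTOR inhibitor, gave 54, 73 and 19 for *Pim3*. Samples 1 and 2 lay above the DMSO range and sample 3 inside it, though above both DMSO samples numbered 3. The log2 fold change was 1.48 (adjusted p = 0.00371), and the call was lost without sample 2 of Omipalisib (log2 fold change 1.09, adjusted p = 0.0923) and with the second DMSO set alone as the reference (1.21, adjusted p = 0.0613). In BGT226 24.1% of all genes were called higher, in Omipalisib 17.5% and in Midostaurin 2.63%, so that a higher gene was a common result with BGT226 and Omipalisib and a rare result with Midostaurin. LPS response markers summed to 36927 to 64503 with Midostaurin, below the 67778 to 131054 of the DMSO samples, and whether this bears on *Pim3* was not tested.

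The 3 CKIs with lower *Pim3* took it to the bottom of its range. *Pim3* was at 9, 5 and 4 with BMS911543, a JAK2 inhibitor used against NQO2, where the log2 fold change was -1.22 (adjusted p = 0.0426). It was at 5, 11 and 4 with Afatinib, an ERBB inhibitor (log2 fold change -1.13, adjusted p = 0.0346), and at 6, 7 and 6 with the MEK inhibitor Pimasertib (-1.09, adjusted p = 0.0441). The BMS911543 and Pimasertib samples lay below all DMSO samples, whose lowest value was 10, as in 2.03% of all pairs of a gene and a CKI, and 1 Afatinib sample did not. The samples of Vatalanib, a VEGFR inhibitor (9, 9 and 7), also lay below all of DMSO, and it was not past the threshold (log2 fold change -0.75, adjusted p = 0.608). Of all genes, 8.08% were called lower with BMS911543, 12.8% with Afatinib and 5.68% with Pimasertib. Values this small carry a large counting error, and a pseudocount of 10 in place of 1 ended all 3 calls (adjusted p of 0.152, 0.103 and 0.0938, in the same order). So did leaving out the DMSO sample at 31, number 2 of the second set (adjusted p of 0.171, 0.126 and 0.146), or sample 1 of the first set (0.0678, 0.0521 and 0.0569). The call with BMS911543 was also lost without DMSO sample 1 of the second set (0.0564). Without single samples of the CKI itself it was lost for numbers 2 and 3 of BMS911543 (0.153 and 0.278), 1 and 3 of Afatinib (0.16 and 0.158) and all 3 of Pimasertib (0.086 to 0.134). When the mitochondrial share was added to the blocked fit, the change with Pimasertib was -0.68 (adjusted p = 0.504). That fit cannot tell Pimasertib from its high share.

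**Figure D2:**
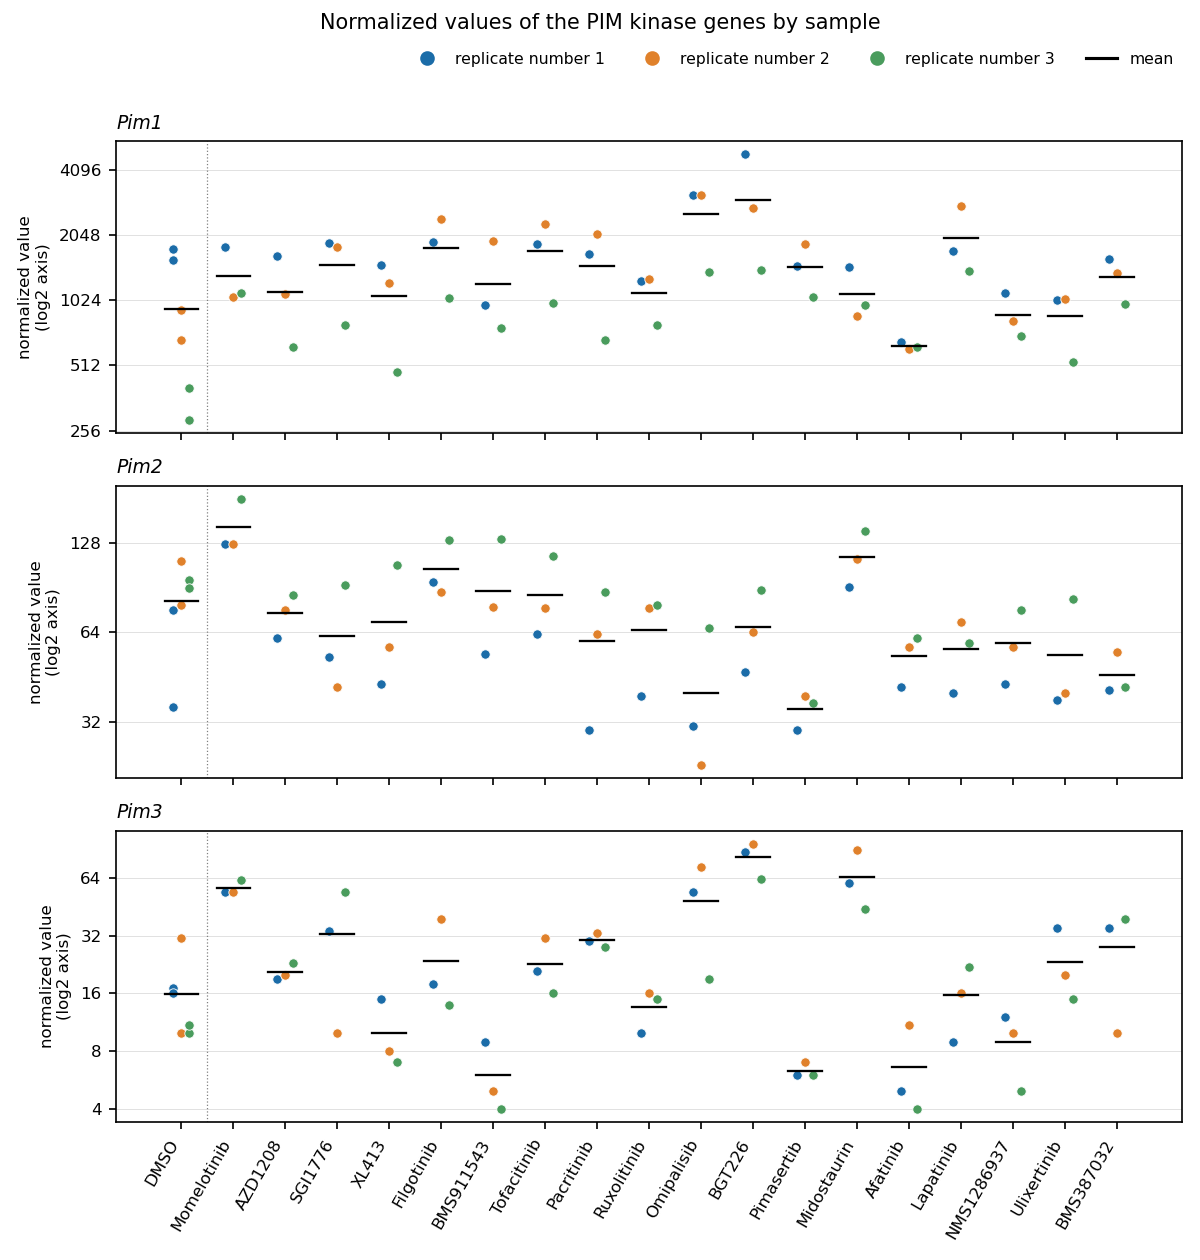
Normalized values on a log2 axis of the 3 genes in each sample of DMSO and of 18 CKIs, colored by replicate number, with a black bar at the mean. *Pim3* with BGT226 (63 to 96), Midostaurin (44 to 89) and Momelotinib (54 to 62) lay above all 6 DMSO samples (10 to 31), while *Pim1* with BGT226 (1413 to 4833) overlapped the DMSO range (287 to 1762). Of all genes, 3.71% lay above all DMSO samples with Momelotinib, and of all pairs of a gene and another CKI, 4.53% did.

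*Pim1* was higher on average with most CKIs than with DMSO, and past the threshold with 3 of 57. The mean of 54 of the 58 CKIs was above that of DMSO, which ranked 55 of 59 conditions, and 56 log2 fold changes were above 0. All of these share the same 6 DMSO samples, of which the samples numbered 3 were low. In a fit without the block, *Pim1* rose with BGT226 (4833, 2723 and 1413), Omipalisib (3150, 3132 and 1380) and the ERBB inhibitor Lapatinib (1731, 2800 and 1401). The log2 fold changes were 1.79, 1.64 and 1.31, each with an SE of 0.50, and the adjusted p-values were 0.00264, 0.0081 and 0.0439. The 3 higher calls compare with 2.56% of all pairs of a gene and a CKI called higher. Within these CKIs the share of all genes called higher was 24.1% with BGT226, 17.5% with Omipalisib and 18.1% with Lapatinib. No CKI had its 3 *Pim1* samples above all 6 DMSO samples, where 4.53% of all pairs did. The highest DMSO values, 1580 and 1762, were those of the samples numbered 1, and sample 3 of BGT226 lay below both.

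Within the replicate numbers the order was clearer. Each BGT226 and each Omipalisib sample lay above both DMSO samples of its own number, and so did the *Pim1* values of 21 of 57 CKIs, against 13% of all pairs. With the number as a block, 13 CKIs passed the threshold, all higher, where 4.66% of all pairs were called higher. The 10 CKIs added were Lenvatinib (adjusted p = 0.00767), MK2206, Filgotinib, Mubritinib, Tofacitinib, X396, Apitolisib, TG100115, PF04691502 and Pimasertib, with log2 fold changes from 0.90 to 1.28. When the mitochondrial share was added to that fit, 4 were past the threshold, BGT226, Omipalisib, Filgotinib and Mubritinib, where 1.89% of all pairs were called higher, and Lapatinib was not (adjusted p = 0.0957).

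Single libraries decided some *Pim1* calls. The call with BGT226 was lost without its sample 1, at 4833 (adjusted p = 0.0756), and that with Omipalisib without its sample 1 or 2 (0.0688 and 0.0648). The call with Lapatinib was lost without any of its 3 samples (0.0629 to 0.198) and without DMSO sample 3 of the first set, or 2 or 3 of the second set (0.131, 0.0862 and 0.0986). The scaling by the median of ratios ended it as well (adjusted p = 0.0601). That scaling shifted the median of all genes by over 0.1 in 18 of 58 CKIs, among them BGT226, whose median log2 fold change was 0.21 by the authors' scaling, Omipalisib (0.12), Lapatinib (0.11) and Pimasertib (0.12), and turned no direction of the 22 member results that were rerun. Afatinib had the lowest *Pim1* mean of all conditions, 631 ± 25.1 (SD, n = 3), inside the DMSO range (log2 fold change -0.28, adjusted p = 0.725).

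*Pim2* fell with Pimasertib and Omipalisib and with no other CKI by the unblocked fit, and no CKI raised it past the threshold. These 2 lower calls among 57 CKIs compare with 1.68% of all pairs of a gene and a CKI called lower. Within these CKIs the share of all genes called lower was 5.68% with Pimasertib and 8.16% with Omipalisib. Pimasertib gave 30, 39 and 37, and only sample 1 lay below the lowest DMSO value of 36. The log2 fold change was -1.11 ± 0.34 (SE; adjusted p = 0.015), and with the block and the mitochondrial share it was -0.73 (adjusted p = 0.0365). Omipalisib gave 31, 23 and 66, with a log2 fold change of -1.07 (adjusted p = 0.0122) in the same macrophage samples in which *Pim1* and *Pim3* rose. The samples of both CKIs lay below both DMSO samples of their own number, as they did with 5 of 57 CKIs for *Pim2* and in 6.6% of all pairs. In all, 46 of 58 log2 fold changes of *Pim2* were below 0.

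Further *Pim2* calls depended on the fit. With the replicate block, where 3.12% of all pairs were called lower, Afatinib was added (log2 fold change -0.54, adjusted p = 0.0451). With the mitochondrial share in the fit as well, where 1.89% of all pairs were called higher and 2.33% lower, *Pim2* was higher with Midostaurin (0.59, adjusted p = 0.0418) and Filgotinib (0.56, adjusted p = 0.0274) and Afatinib was not past the threshold. The Midostaurin values of *Pim2*, 91, 113 and 140, exceeded both DMSO samples of their number, the only tested CKI for which they did so. Of all pairs of a gene and a CKI, 13% did so. The call with Omipalisib was lost without its sample 1 or 2 (adjusted p of 0.0779 and 0.175), and that with Pimasertib without its sample 1 or 3 (0.063 and 0.0611) or DMSO sample 2 of the second set (0.0508).

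**Figure D3:**
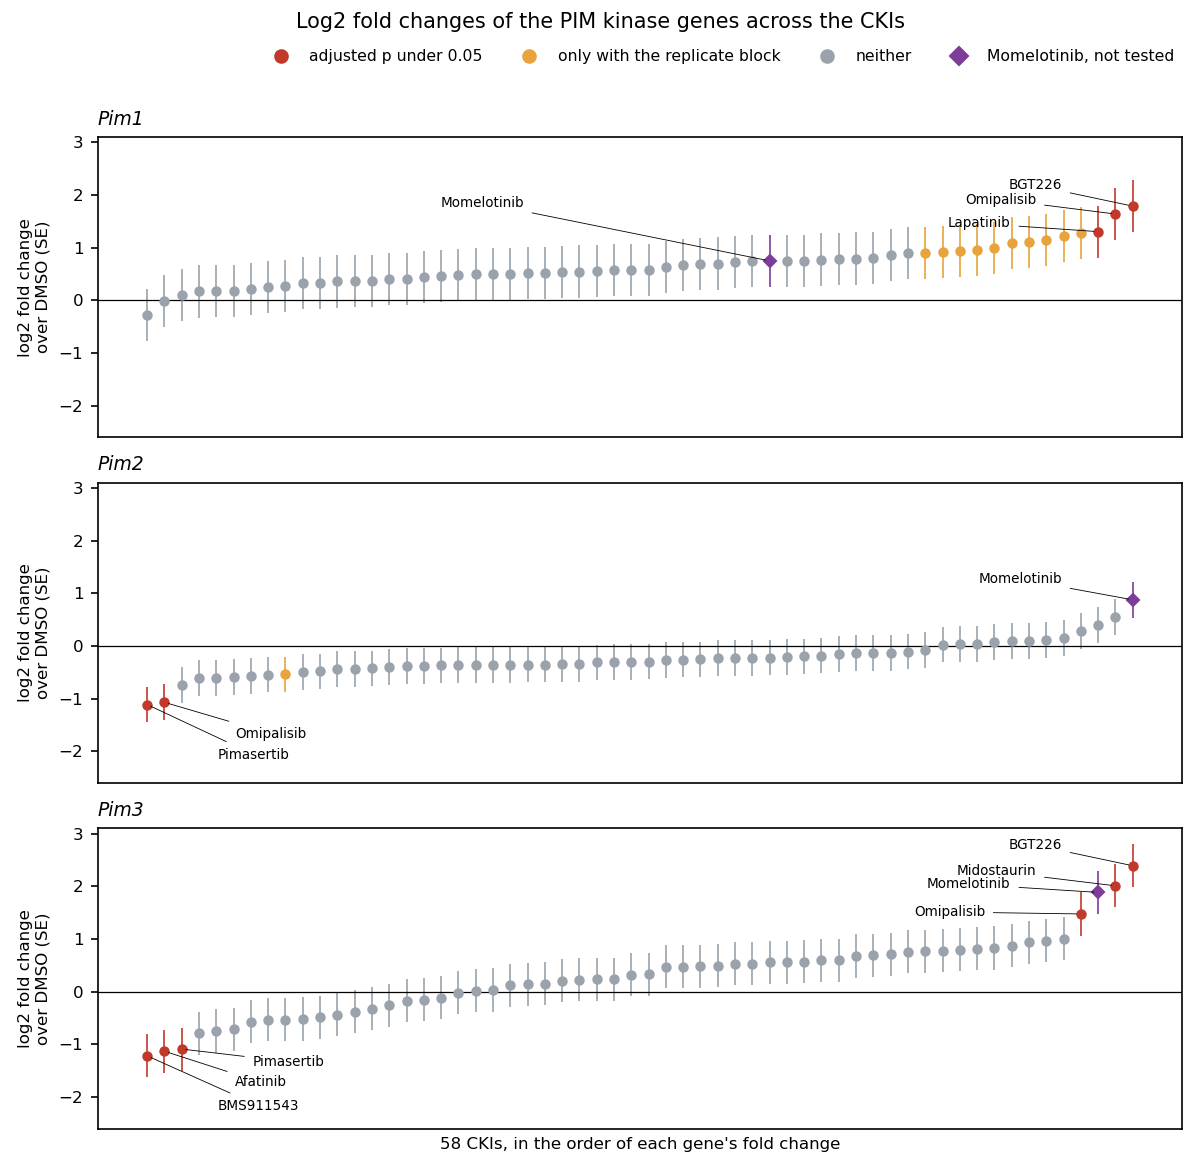
Log2 fold changes over DMSO, on the log2(value + 1) scale, of each gene with the 58 CKIs in order of size, with bars of 1 SE and red points for an adjusted p under 0.05. *Pim1* lay above 0 in 56 CKIs and *Pim2* below 0 in 46, and *Pim3* had calls at both ends, from -1.22 with BMS911543 to 2.39 with BGT226.

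AZD1208 and SGI1776 are designated as PIM kinase inhibitors, and the study used AZD1208 and the CDC7 inhibitor XL413 against PIM1 and SGI1776 against IRAK3. None of the 3 genes passed the threshold with any of the 3 CKIs, with or without the block. With AZD1208, *Pim1* was at 1646, 1096 and 620, *Pim2* at 61, 76 and 85 and *Pim3* at 19, 20 and 23. The log2 fold changes with AZD1208 were 0.44 ± 0.50 (SE; adjusted p = 0.801) for *Pim1*, -0.07 ± 0.34 (0.962) for *Pim2* and 0.47 ± 0.41 (0.745) for *Pim3*. With SGI1776 they were 0.86 (0.356), -0.38 (0.596) and 0.83 (0.268), and its *Pim3* values spread from 10 to 54. With XL413 they were 0.32 (0.965), -0.26 (0.964) and -0.57 (0.957). A p that misses the threshold does not show that the levels were the same, and a change of the size of 1 SE would not be detectable here.

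The other JAK inhibitors did not move the genes together. *Pim3* was at 30, 33 and 28 with Pacritinib (log2 fold change 1.01, adjusted p = 0.185), at 18, 39 and 14 with Filgotinib (0.53, 0.37), at 21, 31 and 16 with Tofacitinib (0.56, 0.358) and at 10, 16 and 15 with Ruxolitinib (-0.11, 1.00). Only BMS911543 passed the threshold, with lower *Pim3*. *Pim1* was above 0 on the log2 scale with all 6 JAK inhibitors, from 0.50 with Ruxolitinib to 1.14 with Filgotinib (1913, 2424 and 1048, adjusted p = 0.086, and 0.00268 with the block).

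By class, the PI3K and mTOR inhibitors held the most calls, and several of them had many genes called. Of all genes, 24.1% were called higher with BGT226, 17.5% with Omipalisib, 12.7% with Apitolisib and 8.86% with PF04691502. With AZD2014 6.06% were, with TG100115 0.0236% and with AZD8186 0%. Of 7 such CKIs, 2 had higher *Pim1*, 5 with the block, and 2 had higher *Pim3*, all from BGT226 and Omipalisib in the unblocked fit. Omipalisib also had lower *Pim2*, where 8.16% of all genes were called lower. The other 5 ranged from AZD8186, with *Pim3* at 7, 12 and 6 (log2 fold change -0.79, adjusted p = 0.722), to PF04691502, with 31, 26 and 30 (0.94, adjusted p = 0.105). With the block and the mitochondrial share, *Pim3* with PF04691502 was past the threshold (1.22, adjusted p = 0.0297). No CKI of the class had lower *Pim3* past it, and the CKIs were not tested against each other. Of the 6 MEK, ERK and RAF inhibitors, Pimasertib had lower *Pim2* and *Pim3*, and the other 5 passed no threshold for any of the 3 genes.

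**Figure D4:**
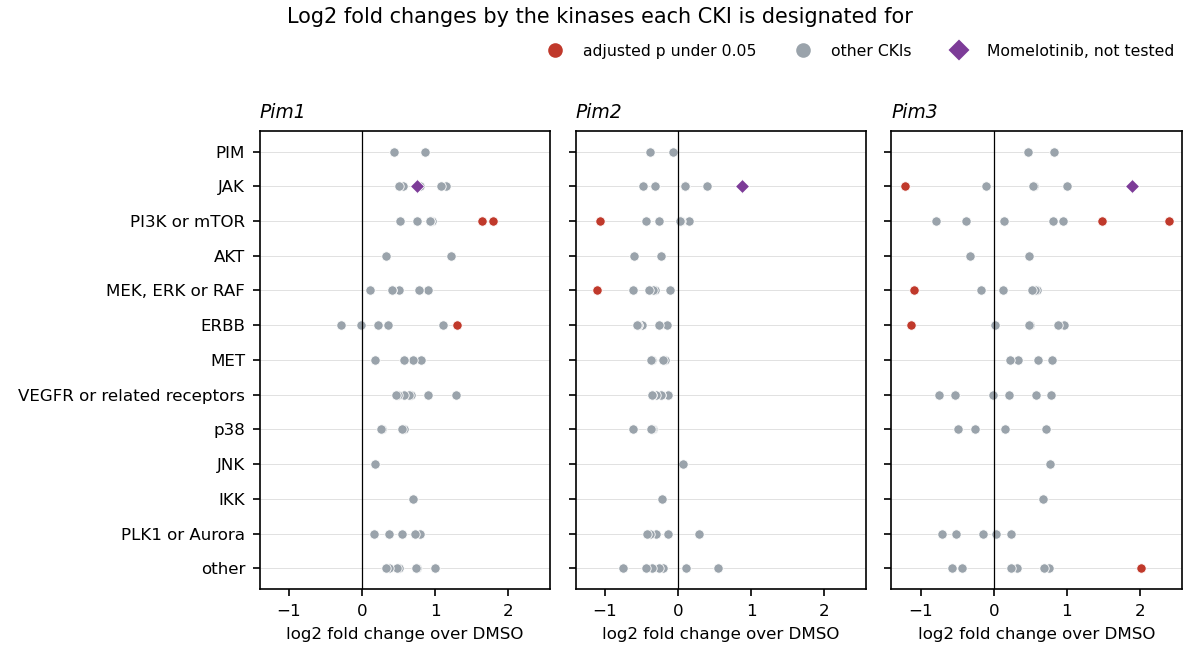
Log2 fold changes over DMSO of each gene, on the log2(value + 1) scale, with the CKIs grouped by the kinases they are designated for, red for an adjusted p under 0.05 and a purple diamond for Momelotinib. The JAK inhibitors ranged from -1.22 to 1.89 for *Pim3*, and the PI3K or mTOR inhibitors from -0.79 to 2.39.

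The condition means of the 3 genes were weakly correlated. Over the 59 condition means, Spearman's rho was 0.06 for *Pim1* and *Pim2*, 0.23 for *Pim1* and *Pim3* and 0.02 for *Pim2* and *Pim3*, and Pearson's r was -0.02, 0.34 and 0.18 in the same order, as a description, since all fold changes share the DMSO samples and the conditions share replicate numbers. The log2 ratio of *Pim1* to *Pim3* within a sample, with 1 added to each value, was 5.62 ± 1.01 (SD, n = 6) with DMSO. It was 1.99 higher with Pimasertib, whose 3 samples lay above all 6 of DMSO (exact two-sided permutation p = 0.0238, adjusted p = 0.452 over 57 CKIs). It was 1.77 higher with BMS911543 (exact permutation p = 0.0476) and 1.53 lower with Midostaurin (exact permutation p = 0.0714). In all, 6 CKIs had an unadjusted p under 0.05 by this test and 0 an adjusted one. The p of Pimasertib, 0.0238, is the smallest that the 84 splits allow in a two-sided test, so that an adjusted p under 0.05 over 57 CKIs would have needed many CKIs at that value. With a pseudocount of 10, 1 CKI had an unadjusted p under 0.05.

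In the order of the condition means, 0 of 58 neighbouring pairs had ranges that did not overlap, for each of the 3 genes. For *Pim3* the order ran from BGT226 (82), Midostaurin (64.3), Momelotinib (56.7) and Omipalisib (48.7) down to Afatinib (6.67), Pimasertib (6.33) and BMS911543 (6). For *Pim1* it ran from BGT226 (2990), Omipalisib (2554) and Lapatinib (1977) to NMS1286937 (877), Ulixertinib (863) and Afatinib (631). For *Pim2* it ran from Momelotinib (144), Midostaurin (115) and Filgotinib (104) to BMS387032 (46), Omipalisib (40) and Pimasertib (35.3). The spread within conditions was wide, with residual SDs on the log2 scale of 0.71, 0.49 and 0.58 for *Pim1*, *Pim2* and *Pim3* against 0.31 for the median gene.

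Of 24 listed genes encoding substrates of the PIM kinases, 22 were tested, and their counts are set beside the shares of all genes called. With BGT226, 6 were higher and 1 lower, where 24.1% and 6.32% of all genes were, and the median log2 fold change of the list was 0.26 against 0.21 for all genes. The mean of *Cxcr4*, a chemokine receptor, went from 18.7 with DMSO to 365 (log2 fold change 4.84, adjusted p = 1.02e-13), and that of *Mdm2*, the ubiquitin ligase of p53, from 1874 to 6828 (1.87). *Foxo3*, a factor that PI3K signaling keeps out of the nucleus, rose by 1.36 (adjusted p = 0.00156). With Omipalisib 7 were higher, *Cxcr4* (4.83), *Foxo3* (1.71) and the p27 gene *Cdkn1b* (1.02) among them, and *Cdc25a*, a phosphatase of the cell cycle, was lower by -0.71, where 17.5% and 8.16% of all genes were higher and lower. With Midostaurin 2 were higher, *Myc* by 2.02 (from 342 to 1367, adjusted p = 5.98e-12) and *Cdkn1b* by 0.72, where 2.63% of all genes were. With Pimasertib 5 were higher and 1 lower (16% and 5.68% of all genes), with Afatinib 3 and 5 (9.06% and 12.8%), with BMS911543 0 and 3 (0.472% and 8.08%) and with Lapatinib 3 and 2 (18.1% and 5.26%). With AZD1208 0 of the 22 passed the threshold by limma, where 0% of all genes were higher and 0.0315% lower, and 3 had an unadjusted p under 0.05.

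Genes of the JAK-STAT pathway, of which 33 of 34 were tested, were mostly lower among those called with the 3 CKIs that lowered *Pim3*. The same held with Lapatinib, with which *Pim3* was not called (log2 fold change 0.02, adjusted p = 0.978 by limma). With Pimasertib 15 were lower and 1 higher, where 5.68% of all genes were lower and 16% higher, and the list's median log2 fold change was -0.39 against 0.12. *Stat5a*, a factor known to act on *Pim1*, fell by 2.14 (from 2384 to 542, adjusted p = 1.3e-09), and *Cish*, a STAT5 target, fell by 1.35. The log2 fold change of *Pim1* with Pimasertib was 0.90 (adjusted p = 0.174 by limma, and 0.0188 with the block). Whether the falls of *Stat5a* and *Cish* bear on *Pim1* was not tested. With Afatinib 14 were lower and 2 higher (12.8% of all genes lower and 9.06% higher), and with BMS911543 7 lower and 1 higher (8.08% and 0.472%). With Lapatinib 9 were lower and 2 higher (5.26% and 18.1%). *Socs1*, a feedback inhibitor of JAKs, went from 2688 with DMSO to 179 with Afatinib (log2 fold change -3.57) and 170 with BMS911543 (-3.82), and its adjusted p was 6.56e-08 in the latter.

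With Filgotinib 16 JAK-STAT genes were lower, *Stat2*, *Stat3* and *Irf1* among them, and 2 higher, where 14.6% and 6.1% of all genes were lower and higher, while *Pim1* and *Pim3* had means above that of DMSO. With BGT226 7 were higher and 5 lower, where 24.1% and 6.32% of all genes were. With Omipalisib 6 were higher and 4 lower (17.5% and 8.16% of all genes), and with Midostaurin 4 and 4 (2.63% and 1.93%). *Osm*, an IL-6 family cytokine, rose by 2.18 with BGT226, and *Csf2rb*, the shared receptor chain of GM-CSF, by 1.22, whereas *Cish* fell by 0.96. These lists were chosen with earlier results of these data known, so their counts describe and are not independent evidence.

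Of 11 genes for the chaperones, ubiquitin ligase and phosphatase subunits that act on PIM proteins, all were tested. The inducible chaperone genes *Hspa1a* and *Hspa1b* fell with BGT226 by 1.48 and 1.45 (adjusted p = 2.15e-10 for *Hspa1a*) and with Pimasertib by 0.58 and 0.72. *Hspa8*, the constitutive member of that family, rose with BGT226 (0.32), Omipalisib (0.38) and Midostaurin (0.32). *Stub1*, a ligase that marks chaperone clients for degradation, fell with BMS911543 (-1.10), Filgotinib (-0.82) and Lapatinib (-0.86). With BGT226 1 was higher and 2 lower, where 24.1% and 6.32% of all genes were. With Omipalisib 3 were higher and 0 lower (17.5% and 8.16% of all genes), and with Midostaurin 1 and 0 (2.63% and 1.93%). With Pimasertib 2 were higher and 2 lower (16% and 5.68%), and with Lapatinib 5 and 1 (18.1% and 5.26%).

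The genes whose condition means followed each member most closely were different for each. They were *Btg1* (rho = 0.84), an antiproliferative gene, with *Gm6988* and *Gm7926* for *Pim1*, *Alas1* (0.67), the first enzyme of heme synthesis, with *Hspa1b* and *Bcor* for *Pim2*, and *Foxj3* (0.77) with *Emilin2* and *Yipf4* for *Pim3*. These are Spearman correlations over 59 conditions that share replicate numbers and depth. Among expressed neighbours on the chromosome, *Otud5*, 1.68 kb upstream of *Pim2*, and *Slc35a2*, 0.812 kb downstream, were not past the threshold with Pimasertib or Omipalisib. Nor were *Creld2*, 35.5 kb from *Pim3*, and *Trabd* with any CKI that changed *Pim3*. *Fgd2*, 111 kb from *Pim1*, rose with BGT226 (0.88, adjusted p = 0.00106), Pimasertib (0.74, adjusted p = 0.0144) and Lapatinib (0.57, adjusted p = 0.0499) but was not past the threshold with Omipalisib (0.29, adjusted p = 0.35). *Tbc1d22b*, 53.7 kb on the other side of *Pim1*, fell with Omipalisib (-0.57, adjusted p = 0.0396) and was not past the threshold with BGT226 (-0.18, adjusted p = 0.554) or Lapatinib (-0.32, adjusted p = 0.264). *Pim1* overlaps the antisense gene *Gm26885* (mean 1.94), and *Pim3* overlaps *Gm33049* (mean 0.0167) on the same strand. The counting is not stated to use strand, so a small share of reads from *Gm26885* cannot be told apart from those of *Pim1*.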

How the data were processed

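Total RNA of 180 macrophage samples was made into polyA libraries by the SMART-seq2 protocol, with oligo(dT) priming and Tn5 fragmentation. Per the methods, reads were mapped by TopHat2 2.1.1 on the mm10 build. The authors kept 1 alignment for each read, removed blacklisted regions with bedtools 2.29.2 and counted reads on exons of curated RefSeq genes, and the use of strand is not given in the sources used here. They deposited these values after scaling each sample on genes that varied little and rounding, so the deposited value has the standing of a score, called the normalized value, and no count test was run. The authors' own tests used DESeq2. Columns were matched to samples by name, with 0 left over. The depth in reads is unknown, so the totals of normalized values are given.

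Genes with a mean of at least 10 over all samples were tested with limma 3.58.1 in R 4.3.3, by its moderated test with a variance trend on log2(value + 1), in a fit of all 59 groups. Each of 57 CKIs was compared with the 6 DMSO samples, p-values were adjusted over the 12714 genes within each CKI by the method of Benjamini and Hochberg, and an adjusted p under 0.05 was taken as a call. A fold change on this scale understates that of low genes. The scripts were tested on simulated data. Ratios were compared by exact permutation tests over 84 splits, or 27 within replicate numbers, in Python 3.11.15 with SciPy 1.17.1. Upstream sequences are from RefSeq (GRCm38.p6) and UTRs from GENCODE M21 transcripts, and all 3 symbols matched in both.

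The replicate numbers come from the labels, which do not say what a number shares. The deviations of same-numbered CKI and DMSO samples from their group means had a mean correlation of 0.314, and every pair was over 0.1 in 34 of 58 CKIs. The mean of other pairs was -0.157. Deviations from a group mean cancel out within the group, so that value follows from the first and is no separate evidence. In the other CKIs the pairing was not met by that criterion, so the block is an alternative for all. The members and gene lists were chosen with earlier results of these data known. The genes named are the members, those of 3 lists, the 3 most similar genes by Spearman's rho and the neighbours on the chromosome, and not all of them are described. The CKIs described in full were chosen by their target, by the number of members called and by the highest and lowest levels. The alternatives were other pseudocounts, filters, scaling, reference sets, fits and adjustments, and leaving out samples. P-values measure the spread between these samples, whose origin in separate animals is not stated.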

Additional observations from a re-analysis of the deposited data

Results flagged for a closer look

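*Pim3* in the DMSO samples had a value of 31 in sample 2 of the second set, far above the other 5, which lay between 10 and 17. Its gap to the nearest sample, as a share of the whole range, was 0.667, above Dixon's critical value for 6 samples, a level that chance passes in about 1 of 20 groups. Without it the 3 higher *Pim3* calls held, with BGT226, Midostaurin and Omipalisib, and the 3 lower calls were lost.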

How the results depend on the processing

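Of 11 calls for the members, 2 held under every alternative that gave a value, *Pim3* with BGT226 (adjusted p up to 0.000773) and with Midostaurin (up to 0.0225), and all 22 member results that were rerun kept their direction. *Pim1* was called in 3 CKIs, against 1 when only the groups compared entered the fit and 13 with the replicate block. *Pim2* was called in 2 CKIs, against 0 with DMSO set 2 alone, 1 with only the groups compared, 1 with the adjustment over all genes and CKIs, and 4 with the mitochondrial share and the replicate block. *Pim3* was called in 6 CKIs, against 3 with a pseudocount of 10, 3 with no filter, 3 with DMSO set 1 alone, 3 with only the groups compared and 3 with the adjustment over all genes and CKIs. The cause of these moves was not tested. Leaving out a replicate number or a DMSO sample gave 0 to 7 calls for *Pim1*, 0 to 2 for *Pim2* and 2 to 6 for *Pim3*. For *Pim1* these were 0 without the samples numbered 2, and 5 and 7 without DMSO sample 1 of the first and of the second set. For *Pim2* they were 0 without the samples numbered 2, and 1 without those numbered 3 or DMSO sample 2 of the second set. For *Pim3* they were 2 without the samples numbered 1 or 2, and 3 without those numbered 3, DMSO sample 1 of the first set or DMSO sample 2 of the second set.

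The filter at a mean of 50 leaves *Pim3* out and gave it no value. With the replicate block *Pim2* had 3 calls and *Pim3* 6. The ratio of *Pim1* to *Pim3* had 0 calls in every setting run for it by the exact permutation test, which could pass the adjustment over 57 CKIs only if many of them reached its smallest p, so these counts say nothing of stability. With the block 6 CKIs were again at an unadjusted p under 0.05, but not the same ones. BMS911543 and Bafetinib dropped out (exact permutation p = 0.0741 each), and Midostaurin and MK2206 came in (exact permutation p = 0.037 each). With a pseudocount of 10 there was 1, and with 1 DMSO set alone or without a replicate number the smallest p the design allows is above 0.05. Of the 174 pairs of same-numbered samples, 144 had a correlation over 0.1, and 126 of 174 CKI samples correlated best with the DMSO samples of their own number. The depth in reads is unknown, and *Pim3*, at 10 to 31 in DMSO, had the lowest values of the 3 genes.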
